A study of Mus musculus with 14 samples.

Results

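The comparison set the plantaris muscle on day 3 of mechanical overload against the same muscle on day 1, using 4 of the study's 14 arrays. The 2 arrays of day 3 and the 2 of day 1 were chosen by the day in their labels, and all 19938 genes with a probe set of 1 gene symbol were compared. The study followed the plantaris of old male C57BL/6J mice, 25 months of age, through 7 days of sampling, from day 0 to day 14. Overload was produced by synergist ablation: surgeons took out the gastrocnemius and the soleus, the larger calf muscles, and left the plantaris to bear the load. Each array, an Affymetrix Mouse Gene 1.0 ST chip that reads the whole transcript, held RNA pooled from the left or from the right plantaris of 6 animals. Both groups of this comparison had therefore undergone the same surgery and differed in the time since it, in the animals, and in nothing else that the labels name. None of the arrays is labelled as a sham operation, so the wound of surgery and the load on the muscle cannot be told apart. The design text reads as if the left and right pools of a day shared their animals, and the p-values below therefore measure the spread between sides and arrays, which may be technical.

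Overload by synergist ablation injures the muscle as well as loading it. In injured muscle, neutrophils arrive first and are drawn in by chemokines, and monocytes follow and mature into macrophages that clear debris. Satellite cells, fibroblasts and macrophages in the tissue then divide, new matrix is laid down, and muscle precursors fuse. Dividing cells switch on a fixed order of genes, from the cyclins of G1 through the replication machinery of S phase to the kinases, kinetochore and spindle proteins of mitosis. The days from 1 to 3 fall between the first of these events and the later ones.

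Values are log2 signals, so a difference of 1 is a 2-fold change, and a level of one gene is not compared with that of another, since probes differ in brightness. A gene is said to have risen or fallen where the adjusted p of the fit was under 0.05. By that rule 3896 genes, 19.5% of those tested, rose from day 1 to day 3, and 4923 genes, 24.7%, fell. In either direction the share was 44.2%. A rise of at least 2-fold was called for 606 genes (3.04%) and a fall of at least 2-fold for 232 (1.16%). The large changes were thus mostly upward, although more genes fell than rose at the threshold of 0.05. That order depends on the setting: at a threshold of 0.01, 2900 genes rose and 2494 fell. With the dimmest 25% of genes left out, 3997 rose and 4011 fell. The median difference over all genes was -0.10 and the median standard error of a difference was 0.0974. Falls were spread over dim and bright genes, and rises were few among dim ones: among the 4985 genes with the lowest mean signal the median was -0.20, with 83 genes higher and 1260 lower, while among the 4985 with the highest it was 0.04, with 1638 higher and 1260 lower. When the arrays were set to equal medians, higher genes made up 32% of the called genes instead of the 44.2% of this scaling, and the median difference was -0.17. The number of genes that fell was 3114 without the day 1 right array and 2874 without the day 3 left array.

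**Figure D1:**
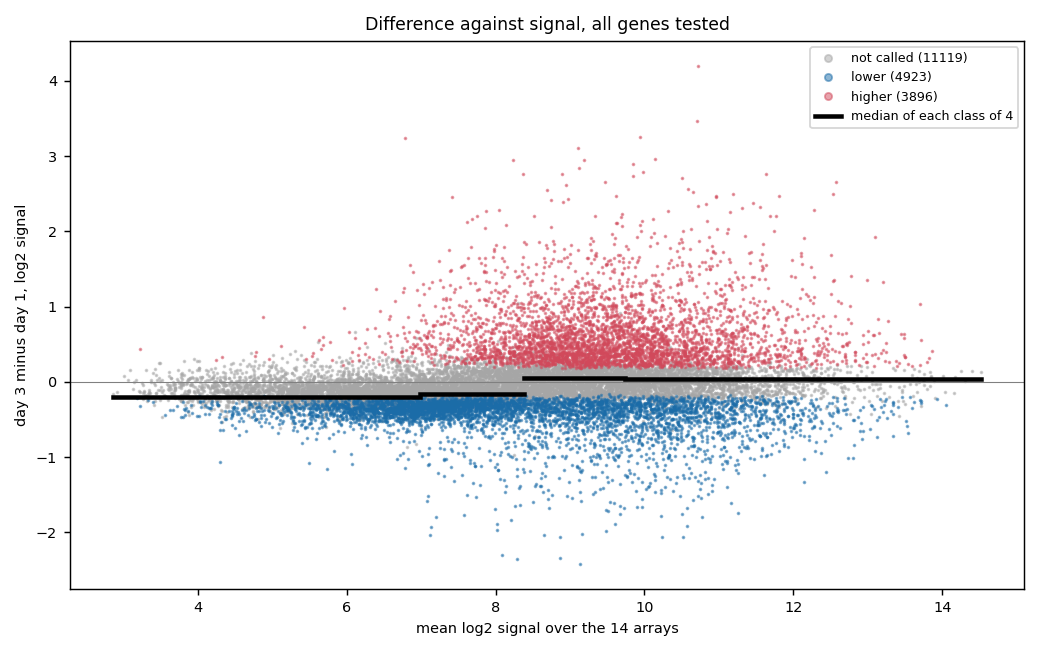
Each point is 1 of the 19938 genes, placed by its mean log2 signal over the 14 arrays and by its log2 difference of day 3 minus day 1, and the black bars are the medians of 4 classes of equal size by mean signal. The class with the lowest signal lies below 0 with a median of -0.20, and the 606 called rises of at least 2-fold outnumber the 232 falls of that size.

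The label of the tissue was checked first. Defining genes of the muscle fibre were among the brightest on the array, at the 99th or 100th percentile of mean signal for Ckm, Acta1, Myh4, Mylpf and Pygm. Acta1, the actin of the adult sarcomere, read 14.25 and 14.25 on day 1 (left and right) and 14.28 and 14.25 on day 3, a difference of 0.02 ± 0.07 (SE; adjusted p = 0.84). Ckm, muscle creatine kinase, differed by -0.21 ± 0.10 and was not called (adjusted p = 0.12), whereas Myh4, the fastest myosin heavy chain, fell by 0.33 ± 0.09 (adjusted p = 0.013). Markers of skin (Krt5 and Krt14) lay at the 35th and 36th percentile and were not called. The samples are bulk muscle, so fewer cells of a type and less RNA per cell cannot be told apart in any of the results below.

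Many of the largest rises were in cell division genes. The plot of list members sets all measured genes of 22 of the 52 lists side by side, and the lists for replication and mitosis lie at its right. Entry into the cycle came first in the order described here. Ccnd1, the cyclin that binds Cdk4 and Cdk6 in G1, read 10.06 and 10.20 on day 1 and 11.69 and 11.65 on day 3. The groups did not overlap, and the rise was 1.54 ± 0.09 (2.9-fold; adjusted p = 1.5e-07). On day 0 the mean had been 9.69, and after day 3 it was 11.48 on day 5 and 10.95 on day 14. Of the 26 measured genes of the G1 list, 12 rose and 9 fell, against 19.5% and 24.7% of all genes. The risers were Ccnd2 and Ccnd3, Ccne1 and Ccne2, Cdk2, Cdk4, Cdk6 and others, while the fallers were Btg1 and Btg2, Gadd45a, Gadd45b and Gadd45g, Ccng1 and Ccng2, Mdm2 and Cdkn2b. Btg2, an antiproliferative gene, fell by 1.46 ± 0.12 and Gadd45a, a stress-induced arrest gene, by 1.34 ± 0.20. Cdkn1b, the inhibitor p27, differed by -0.16 and was not called (adjusted p = 0.11).

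Transcription factors of the cycle did not move as one group. Foxm1, the forkhead factor that drives mitotic genes, read 7.33 and 7.31 on day 1 and 9.20 and 9.16 on day 3. All 4 values lay in 2 tight pairs that were far apart, and the rise was 1.86 ± 0.07 (3.63-fold; adjusted p = 2.9e-08). E2f1, an activator of S phase genes, rose by 1.04 ± 0.12, and Rbl1, a pocket protein that holds E2F factors back, rose by 1.37 ± 0.09. Myc, the growth factor-induced transcription factor, moved the other way. It read 12.13 and 11.83 on day 1 and 11.25 and 11.21 on day 3, a fall of 0.75 ± 0.10 (adjusted p = 7.5e-05) from a level that had risen by 3.33 between days 0 and 1, and the day 3 level was still above the mean of 8.65 of day 0. In the list of 24 factors, 11 rose and 5 fell. The other genes that fell were E2f4, E2f5, E2f6 and Tfdp2, members of the E2F family and its partners.

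Origin licensing and helicase genes, which load the replicative helicase on DNA, rose in 18 of 21 and fell in 0, with a median of 0.64 against -0.10 over all genes. Mcm5, a subunit of that helicase, read 8.98 and 9.05 on day 1 and 10.31 and 10.46 on day 3, so the lower day 3 array was above the higher day 1 array. The rise was 1.37 ± 0.15 (2.58-fold; adjusted p = 2.1e-05). Dbf4, the activating subunit of the Cdc7 kinase that fires origins, rose by 1.44 ± 0.19, and Mcm6 and Mcm3 by 1.27 ± 0.15 and 1.13 ± 0.12. The licensing controls Gmnn and Cdt1 were not called, Gmnn with 0.07 (adjusted p = 0.53) and Cdt1 with 0.27 (adjusted p = 0.052). The list of polymerases, clamp and fork genes gave 26 risers and 0 fallers of 30, median 0.86. In that list Pole, the leading-strand polymerase, rose by 1.53 ± 0.10, and Pcna, the sliding clamp, by 0.60 ± 0.15. Nucleotide supply was split: 10 of 18 genes rose and 1 fell. Rrm2, the subunit of ribonucleotide reductase that makes deoxynucleotides in S phase, read 9.08 and 8.71 on day 1 and 10.95 and 11.11 on day 3, a rise of 2.14 ± 0.25 (adjusted p = 3.7e-05). The purine synthesis gene Ppat fell by 0.27 ± 0.08.

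Mitotic genes had larger median differences than replication genes. Of 29 kinases, cyclins and genes of the anaphase-promoting complex, 27 rose, 0 fell, and 20 rose at least 2-fold, with a median of 1.41. Ccna2, the cyclin of S phase and early mitosis, read 8.02 and 7.39 on day 1 and 10.97 and 10.95 on day 3. The left array of day 1 lay above the right, the day 3 arrays were nearly equal, and the rise was 3.25 ± 0.28 (9.53-fold; adjusted p = 3.3e-06). Cdk1, the kinase that drives entry into mitosis, read 8.05 and 8.10 on day 1 and 10.67 and 10.96 on day 3, a rise of 2.74 ± 0.17 (6.68-fold; adjusted p = 2.2e-07). Bub1, a kinase of the spindle checkpoint, rose by 2.95 ± 0.28, and Plk1, which acts from centrosome maturation to cytokinesis, by 2.66 ± 0.12. Neither Pttg1 nor Wee1 was called, at -0.25 and 0.16. The 53 kinetochore, spindle and cytokinesis genes gave 52 risers, 46 of them at least 2-fold, with a median of 1.60. Anln, which anchors the contractile ring, read 7.14 and 6.98 on day 1 and 10.11 and 10.23 on day 3, and rose by 3.11 ± 0.17 (8.66-fold). The single faller, Zwint, a kinetochore protein also expressed in non-dividing cells, read 12.06 and 11.76 on day 1 and 10.89 and 10.82 on day 3 (a fall of 1.06 ± 0.10; adjusted p = 7e-06) and is named because its direction stood out after its values were seen.

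Marker genes of dividing cells moved with those lists. Mki67, the antigen of cycling cells, read 8.27 and 7.69 on day 1 and 10.65 and 10.88 on day 3, a rise of 2.79 ± 0.33 (adjusted p = 4.1e-05), and Top2a, which untangles sister chromosomes, rose by 2.85 ± 0.25. Chromosome condensation and topology genes rose in 17 of 23, and 21 of 30 genes of DNA repair and the replication checkpoint rose. No gene of either list fell. The later course of these genes was one of plateau and decline: Cdk1 had means of 10.89 on day 5, 11.02 on day 7, 10.41 on day 10 and 9.36 on day 14, against 8.39 on day 0. Relative to the day 1 mean of each gene, the median of the mitotic kinase list was 0.11 on day 0, 1.41 on day 3, 1.63 on day 7 and 0.28 on day 14. From day 3 to day 5, a comparison in which 4.68% of all genes rose and 1.9% fell, the median differences of the mitotic kinase and licensing lists were 0.21 and 0.08. That comparison shares the day 3 arrays with the present one.

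**Figure D2:**
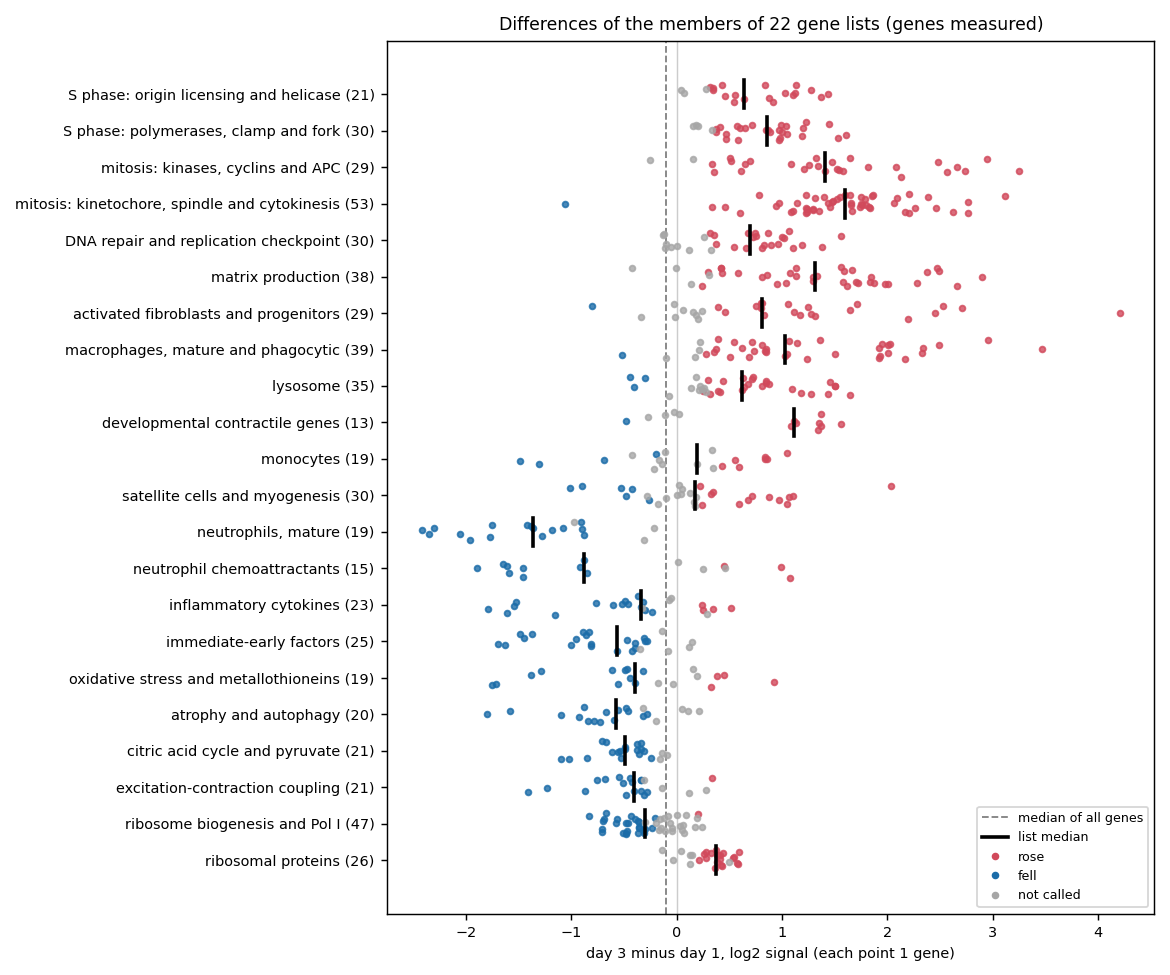
Every point is the log2 difference of day 3 minus day 1 of 1 measured member of the named list, in red where it rose, blue where it fell and grey where it was not called, with the list's median as a black bar and the median of all genes (-0.10) dashed. The kinetochore, spindle and cytokinesis list has its median at 1.60 with 1 gene on the left, and the list of mature neutrophil genes has its median at -1.36.

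Promoter sequences are shown for 2 genes of each list used here, among those with an entry. These had the largest rise in each of 3 division lists or the largest fall in each of 2 inflammation lists. The factors of these programmes bind known letters. Most called members of each list moved one way, but 3 of 15 chemoattractants and 4 of 23 cytokines rose. The sequences are 300 bases each, from 250 before to 50 after the start site that RefSeq gives, in GRCm38.p6. Only the first start site listed for a gene is used. Capitals mark matches, on either strand, to 5 motifs: E2F sites (TTTGGCGC or TTTCCCGC or TTTCGCGC or TTTGGCGG), the cell cycle homology region (TTTGAA), the CCAAT box, NF-kappaB (GGGAATTTC or GGGACTTTC or GGAAATTCC) and AP-1 (TGAGTCA or its reverse complement). The genes are Dbf4 and Mcm5 for licensing, Bub1 and Cdk1 for the kinases, Anln and Prc1 for the spindle, and Cxcl3, S100a9, Il6 and Il1b for the chemoattractants and cytokines described further on. For the kinases, Ccna2 had the largest rise, and its promoter is not shown here. Dbf4 lies at chr5:8422667-8422966 (minus strand), Mcm5 at chr8:75109259-75109558 (plus strand), Bub1 at chr2:127831810-127832109 (minus strand), Cdk1 at chr10:69352863-69353162 (minus strand), Anln at chr9:22389157-22389456 (minus strand) and Prc1 at chr7:80294201-80294500 (plus strand). Cxcl3 lies at chr5:90785851-90786150 (plus strand), S100a9 at chr3:90695672-90695971 (minus strand), Il6 at chr5:30012864-30013163 (plus strand) and Il1b at chr2:129371090-129371389 (minus strand).
Dbf4: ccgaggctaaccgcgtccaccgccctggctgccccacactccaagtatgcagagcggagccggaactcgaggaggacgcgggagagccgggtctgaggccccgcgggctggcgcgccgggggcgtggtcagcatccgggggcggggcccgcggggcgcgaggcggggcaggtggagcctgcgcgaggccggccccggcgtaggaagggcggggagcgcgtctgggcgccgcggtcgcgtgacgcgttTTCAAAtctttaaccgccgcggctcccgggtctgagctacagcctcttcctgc
Mcm5: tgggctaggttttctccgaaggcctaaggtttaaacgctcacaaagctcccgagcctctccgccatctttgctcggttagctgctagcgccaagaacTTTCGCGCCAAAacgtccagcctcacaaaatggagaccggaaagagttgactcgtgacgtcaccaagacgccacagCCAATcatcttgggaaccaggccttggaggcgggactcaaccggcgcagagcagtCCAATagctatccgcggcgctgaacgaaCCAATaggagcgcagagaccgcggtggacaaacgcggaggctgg
Bub1: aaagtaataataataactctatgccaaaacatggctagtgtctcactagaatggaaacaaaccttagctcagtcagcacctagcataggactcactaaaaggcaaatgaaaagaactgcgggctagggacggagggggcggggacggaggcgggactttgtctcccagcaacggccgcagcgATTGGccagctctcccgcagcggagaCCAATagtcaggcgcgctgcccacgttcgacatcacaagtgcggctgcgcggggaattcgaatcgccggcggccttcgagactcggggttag
Cdk1: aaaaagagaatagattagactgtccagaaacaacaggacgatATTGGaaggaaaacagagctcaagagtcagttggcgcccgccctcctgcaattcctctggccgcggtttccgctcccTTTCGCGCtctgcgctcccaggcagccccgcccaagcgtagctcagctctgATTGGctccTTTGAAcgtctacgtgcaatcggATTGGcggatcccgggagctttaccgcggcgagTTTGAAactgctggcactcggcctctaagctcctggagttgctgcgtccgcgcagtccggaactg
Anln: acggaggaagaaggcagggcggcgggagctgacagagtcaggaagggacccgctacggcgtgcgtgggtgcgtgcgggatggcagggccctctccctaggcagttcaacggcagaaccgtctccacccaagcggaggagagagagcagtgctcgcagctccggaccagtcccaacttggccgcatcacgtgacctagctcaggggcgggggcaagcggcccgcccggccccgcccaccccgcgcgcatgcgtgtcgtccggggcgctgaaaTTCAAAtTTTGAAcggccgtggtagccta
Prc1: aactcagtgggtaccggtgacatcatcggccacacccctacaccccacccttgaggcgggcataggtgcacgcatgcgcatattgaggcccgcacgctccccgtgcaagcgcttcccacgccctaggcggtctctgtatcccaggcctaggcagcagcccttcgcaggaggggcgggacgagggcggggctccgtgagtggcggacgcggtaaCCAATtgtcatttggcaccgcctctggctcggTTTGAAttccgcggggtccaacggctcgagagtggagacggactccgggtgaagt
Cxcl3: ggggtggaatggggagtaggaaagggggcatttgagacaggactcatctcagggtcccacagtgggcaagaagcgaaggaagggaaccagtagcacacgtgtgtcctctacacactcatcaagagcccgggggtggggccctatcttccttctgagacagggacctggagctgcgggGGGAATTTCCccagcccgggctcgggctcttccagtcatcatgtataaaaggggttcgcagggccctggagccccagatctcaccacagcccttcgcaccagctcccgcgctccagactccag
S100a9: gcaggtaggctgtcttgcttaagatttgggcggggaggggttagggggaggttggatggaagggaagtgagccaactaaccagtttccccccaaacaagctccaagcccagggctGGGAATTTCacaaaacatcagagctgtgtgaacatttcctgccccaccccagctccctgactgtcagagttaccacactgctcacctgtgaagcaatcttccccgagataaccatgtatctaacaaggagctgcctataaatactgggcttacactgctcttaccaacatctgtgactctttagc
Il6: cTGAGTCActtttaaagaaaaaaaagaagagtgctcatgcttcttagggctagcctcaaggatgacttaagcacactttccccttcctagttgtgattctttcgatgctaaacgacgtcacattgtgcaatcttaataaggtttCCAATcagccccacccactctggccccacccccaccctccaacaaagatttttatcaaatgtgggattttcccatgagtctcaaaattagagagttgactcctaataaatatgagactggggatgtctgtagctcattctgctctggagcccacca
Il1b: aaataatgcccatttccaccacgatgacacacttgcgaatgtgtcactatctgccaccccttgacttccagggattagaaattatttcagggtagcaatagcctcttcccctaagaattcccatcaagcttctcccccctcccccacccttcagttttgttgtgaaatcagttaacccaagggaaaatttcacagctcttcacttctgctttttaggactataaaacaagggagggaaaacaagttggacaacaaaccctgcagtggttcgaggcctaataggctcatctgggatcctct

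In the Mcm5 promoter 2 E2F matches overlap on opposite strands, 153 and 149 bases before the start, beside 3 CCAAT boxes. Cdk1 holds 1 E2F match, 2 cell cycle homology matches and 3 CCAAT boxes, and Bub1 2 CCAAT boxes. In Prc1 a cell cycle homology match sits 5 bases before the start, with a CCAAT box 37 bases before it. Cxcl3 has 2 NF-kappaB matches that overlap on opposite strands, 73 and 72 bases before the start, and Il6 has an AP-1 match 249 bases and a CCAAT box 106 bases before it. Anln held 2 cell cycle homology matches and Dbf4 1, S100a9 held 1 NF-kappaB match, and none of these letters stood in the window of Il1b. E2F letters stood in 2.42% of the 27025 promoters in the table, in 8 of 15 of the licensing list, 9 of 26 of the polymerase and fork list, 2 of 23 of the mitotic kinases, 3 of 47 of the kinetochore list, and 0 of 12 and 0 of 15 of the chemoattractants and cytokines. The cell cycle homology letters stood in 18.1% of all, and in the same order of lists in 5 of 15, 3 of 26, 12 of 23, 30 of 47, 0 of 12 and 0 of 15. The CCAAT box stood in 37.9% of all, and in 11 of 15, 15 of 26, 18 of 23, 31 of 47, 2 of 12 and 4 of 15. NF-kappaB letters stood in 0.855% of all, in 4 of 12 chemoattractants, 2 of 15 cytokines and 1 of 47 of the kinetochore list, and in 0 of the other 3 division lists. AP-1 letters stood in 5.17% of all, in 0 of 12 chemoattractants, 5 of 15 cytokines, 1 of 26 of the polymerase and fork list and 1 of 47 of the kinetochore list, and in 0 of 15 and 0 of 23 of the licensing and mitotic kinase lists. Among the 15614 promoters of tested genes, the E2F, cell cycle homology and CCAAT shares were 3.32%, 15.2% and 38.2%. Those of NF-kappaB and AP-1 were 0.871% and 4.53%. A match is a description of the letters and not a binding site. The absence of one says only that these letters are not in this window.

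Neutrophil genes fell together. Of 19 genes of mature neutrophils, 16 fell and 0 rose, 13 of them at least 2-fold, with a median of -1.36. Retnlg, a granule-associated protein of neutrophils, read 11.78 and 11.69 on day 1 and 9.39 and 9.24 on day 3. The pairs were far apart, and the fall was 2.42 ± 0.32 on the log2 scale (5.34-fold lower; adjusted p = 0.0001). Ly6g, the surface marker used to sort neutrophils, read 10.27 and 10.02 on day 1 and 7.94 and 7.76 on day 3, and fell by 2.30 ± 0.34. Trem1, an amplifying receptor of neutrophils and monocytes, fell by 1.96 ± 0.12, and Csf3r, the receptor for the neutrophil growth factor, by 0.91 ± 0.17. The granule collagenase Mmp8 differed by -0.97 ± 0.37 without passing the test (adjusted p = 0.051). Both day 3 arrays were below both day 1 arrays in all 19 of these genes, against 45.8% of all genes. Genes of the granules that only precursors make were not called in 9 of 10. Between days 0 and 1, a comparison in which 22.3% of all genes rose and 22.6% fell, all 19 mature neutrophil genes had risen. Day 1 was thus where this list stood highest. On day 3, 15 of the 19 were still above day 0 and 2 below, against 24.1% and 26.6% of all genes. The median of day 3 minus day 0 was 1.48. Ly6g was among the lower, by 0.97 ± 0.34 (adjusted p = 0.031), and Retnlg differed by -0.57 and was not called (adjusted p = 0.17).

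Chemoattractants for neutrophils fell in 9 of 15 genes and rose in 3, with a median of -0.88. Cxcl3, a ligand of the neutrophil receptor Cxcr2, read 11.26 and 11.45 on day 1 and 9.25 and 9.68 on day 3. Day 1 was the higher on both sides, and the fall was 1.89 ± 0.15 (3.72-fold lower; adjusted p = 2e-06). Cxcl2, a ligand of the same receptor, read 11.62 and 12.16 on day 1 and 10.09 and 10.50 on day 3, and fell by 1.60 ± 0.28. The calgranulins S100a8 and S100a9, abundant proteins of neutrophil cytoplasm, fell by 1.46 ± 0.35 and 1.65 ± 0.33. Their fall moved with the neutrophil markers above, whose part in it was not tested. Pf4, a chemokine of platelets and macrophages, and Ptx3 and Alox5ap rose. For Cxcl3 day 3 was not the floor: it had a mean of 6.65 on day 0, 9.46 on day 3 and 6.90 on day 7.

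Cytokines of the early response fell in 15 of 23 genes and rose in 4, with a median of -0.34. Il6 read 9.50 and 10.22 on day 1 and 8.25 and 7.89 on day 3. The left pools differed by -1.25 and the right pools by -2.33, so the size depends on the side, but the groups did not overlap and the fall was 1.79 ± 0.25 (adjusted p = 0.00015). Il1b, the inflammasome-processed cytokine, read 11.97 and 12.24 on day 1 and 10.43 and 10.56 on day 3, a fall of 1.61 ± 0.18 (3.06-fold lower; adjusted p = 2.7e-05). Its receptor antagonist Il1rn fell by 1.54 ± 0.13 and Osm, a macrophage and neutrophil cytokine of the Il6 family, by 1.52 ± 0.15. Tnf fell by 0.52 ± 0.10. As for the chemoattractants, the neutrophil genes moved with these falls, and their part was not tested. Among the 4 that rose was Il10, an anti-inflammatory cytokine, which read 6.02 and 6.03 on day 1 and 6.67 and 6.41 on day 3. Ptgs2, the enzyme of inducible prostaglandin synthesis, fell by 1.03 ± 0.23, and Acod1, which makes itaconate in activated myeloid cells, by 2.35 ± 0.28.

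Chemokines for monocytes and lymphocytes did not fall as a group. Of 20 genes, 7 rose and 5 fell (35% and 25%, against 19.5% and 24.7% of all genes). Ccl2, the main monocyte attractant, read 12.36 and 12.53 on day 1 and 12.20 and 12.14 on day 3. The difference of -0.27 ± 0.13 was not called (adjusted p = 0.12), and its level on day 3 was far above the mean of 7.63 on day 0. Ccl8, a further ligand for monocytes, read 7.81 and 8.26 on day 1 and 10.50 and 10.03 on day 3, and rose by 2.23 ± 0.21 (4.7-fold; adjusted p = 5.4e-06). Cxcl16, a membrane-bound chemokine of macrophages, rose by 1.76 ± 0.11. By contrast Cxcl13 and Ccl24 fell by 1.26 ± 0.20 and 1.14 ± 0.11.

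Immediate-early factors, which cells switch on within minutes of a stimulus, fell in 20 of 25 and rose in 0. Egr1 read 11.77 and 11.83 on day 1 and 10.41 and 10.28 on day 3, a fall of 1.45 ± 0.11 (2.74-fold lower). Mafk, a small Maf partner of the antioxidant factors, fell by 1.70 ± 0.10, Nr4a3 by 1.63 ± 0.17 and Fos by 0.83 ± 0.11. The feedback inhibitors of inflammatory and MAPK signalling fell in 17 of 32 and rose in 3, and the inhibitors Dusp5 and Socs3 fell by 1.05 ± 0.15 and 0.93 ± 0.15. Oxidative stress genes fell in 11 of 19 and rose in 4. Among the fallers were Srxn1, which repairs peroxiredoxins, by 1.75 ± 0.07, and the cystine transporter Slc7a11, by 1.38 ± 0.24. Hypoxia and glucose uptake genes fell in 11 of 20 and rose in 6. There the glucose transporter Slc2a3 fell by 1.27 ± 0.13 while Angptl4, a lipase inhibitor, rose by 1.08 ± 0.10. The 11 fallers became 7 without the day 3 left array.

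**Figure D3:**
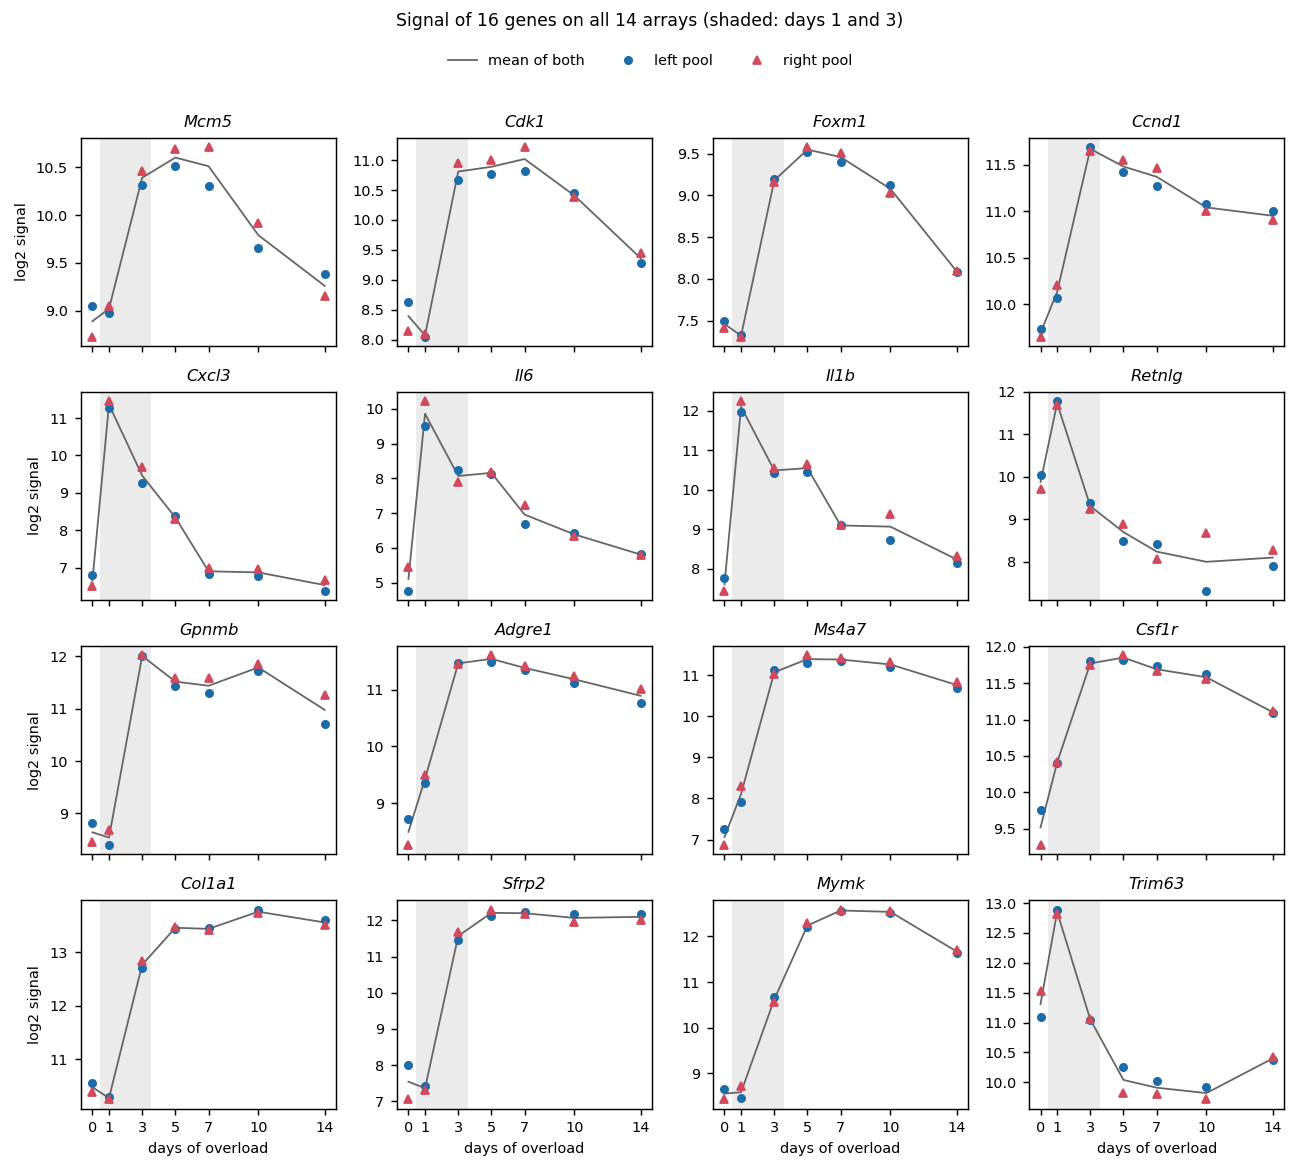
Log2 signal of 16 genes on each of the 14 arrays against days of overload, with circles for left pools, triangles for right pools, a line through the mean of both and shading over days 1 and 3. Cdk1 climbs from 8.05 and 8.10 on day 1 to 10.67 and 10.96 on day 3, whereas Cxcl3 goes down from 11.26 and 11.45 to 9.25 and 9.68.

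Macrophage genes rose while monocyte genes were divided. Of 39 genes of mature and phagocytic macrophages, 34 rose, 20 of them at least 2-fold, and 1 fell, with a median of 1.03. Adgre1, which encodes the macrophage marker F4/80, read 9.35 and 9.50 on day 1 and 11.46 and 11.45 on day 3. The day 3 arrays were nearly equal, and the rise was 2.03 ± 0.13 (4.08-fold; adjusted p = 3.2e-07). Gpnmb, a glycoprotein of lipid-laden and phagocytic macrophages, read 8.40 and 8.68 on day 1 and 12.00 and 12.02 on day 3, and rose by 3.47 ± 0.17 (11.1-fold). Complement genes C1qa and C1qc rose by 2.34 ± 0.11 and 2.49 ± 0.13, Trem2, a lipid receptor of phagocytes, by 2.0 ± 0.11, and Ms4a7 by 2.96 ± 0.14. Csf1r, the receptor on which the lineage depends, read 10.41 and 10.42 on day 1 and 11.80 and 11.75 on day 3 and rose by 1.36 ± 0.12. The 1 gene that fell was Lpl, lipoprotein lipase, which muscle and fat also express, by 0.52 ± 0.09. Lysosomal genes, which macrophages use in quantity, rose in 24 of 35 and fell in 3. Lipa, the acid lipase, rose by 1.65 ± 0.10. Of 19 monocyte genes, 7 rose and 4 fell (36.8% and 21.1%, against 19.5% and 24.7% of all genes). Cybb, a subunit of the phagocyte oxidase, rose by 1.05 ± 0.19, Cd14, a co-receptor for bacterial lipid, fell by 1.30 ± 0.08, and Ccr2, the receptor for Ccl2, differed by 0.35 and was not called (adjusted p = 0.071). Nr4a1 belongs both to the monocyte and to the immediate-early list and counts in each.

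The list of dendritic cell and class II antigen presentation genes rose in 9 of 17 and fell in 1, with H2-Ab1 and H2-Aa, chains of the class II molecule, up by 1.01 ± 0.15 and 0.97 ± 0.15. Lymphocyte genes changed little. In the T and NK cell list 0 of 22 rose and 4 fell (18.2%, against 24.7% of all genes). Foxp3, a factor of regulatory T cells, fell by the most (0.28 ± 0.07). The count of fallers was lower in every fit that left out 1 array. In the B cell list 1 gene of 11 rose and 1 fell, 9.09% each, against 19.5% and 24.7% of all genes. The riser was not called with equal array medians, at a threshold of 0.01 or with any 1 array left out. In the mast cell list 2 of 10 rose, and 1 without the day 1 right array or without either day 3 array. The 2 of 10 are 20%, close to the 19.5% of all genes, and 1 gene fell (10%, against 24.7%). The larger riser, Hpgds, is a prostaglandin synthase that macrophages also make. It read 6.87 and 6.59 on day 1 and 9.30 and 9.27 on day 3 and rose by 2.55 ± 0.13. The mast cell proteases Cpa3 and Tpsb2 differed by 0.54 and -0.05 and were not called. Interferon-stimulated genes rose in 7 of 22 and fell in 3 (31.8% and 13.6%, against 19.5% and 24.7% of all genes), with a median of 0.16. Fewer rose when the day 1 right array or the day 3 left array was left out. On day 1, 20 of the 22 were above day 0, against 22.3% of all genes. On day 3, 21 were, against 24.1%.

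Matrix genes rose, and so did most genes of the activated fibroblast list. Of 38 genes of matrix production, 34 rose and 0 fell, and 25 rose at least 2-fold. Col1a1, which encodes the main chain of type I collagen, read 10.30 and 10.26 on day 1 and 12.71 and 12.84 on day 3, a rise of 2.49 ± 0.08 (5.63-fold; adjusted p = 6.9e-09). Postn, a matrix protein of repair, read 10.62 and 9.90 on day 1 and 12.82 and 13.02 on day 3, a rise of 2.66 ± 0.19. Its day 1 arrays differed more from each other than those of day 3, yet both lay well below both of day 3. P4ha3, a collagen prolyl hydroxylase, rose by 2.89 ± 0.08, and Tnc, the tenascin of injured muscle, by 1.13 ± 0.16. Of 29 activated fibroblast and progenitor genes, 20 rose and 1 fell. The fibroblast markers Pdgfra and Dcn rose less than Col1a1, by 0.39 ± 0.10 and 0.24 ± 0.08. Sfrp2, a secreted Wnt modulator, had the largest rise of the named genes: it read 7.42 and 7.31 on day 1 and 11.46 and 11.67 on day 3 (4.20 ± 0.22, 18.4-fold; adjusted p = 9.5e-08). From day 3 to day 5, against the 4.68% of all genes that rose, 26 of the 38 matrix genes rose, Col1a1 by 0.69. Tendon and cartilage genes rose in 9 of 15 and fell in 2. Tnmd, a marker of tendon cells, rose by 1.67 ± 0.16 and Fmod by 1.70 ± 0.14. From day 0 to day 1 Tnmd and Fmod had fallen, by 1.62 and 1.93. On day 3 neither was called against day 0 (0.05, adjusted p = 0.83, and -0.23, adjusted p = 0.20). Of the 15 tendon and cartilage genes, 7 were above day 0 on day 3 and 3 below. Endothelial genes rose in 17 of 27, with a median of 0.34, and 1 fell, Rgcc, by 1.22 ± 0.16. Proteases were mixed: Mmp13 read 8.58 and 8.51 on day 1 and 9.53 and 10.60 on day 3, with the right pool of day 3 far above the left, and rose by 1.52 ± 0.33, and Mmp3 fell by 1.47 ± 0.17.

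Growth factors moved both ways, with 15 genes up and 14 down of 42 (35.7% and 33.3%, against 19.5% and 24.7% of all genes). Pdgfa, a mitogen for fibroblasts, read 12.14 and 12.18 on day 1 and 10.62 and 10.61 on day 3, a fall of 1.54 ± 0.06, and Pdgfc, another ligand of the family, read 8.40 and 8.38 on day 1 and 9.87 and 9.96 on day 3, a rise of 1.52 ± 0.10. The 2 ligands crossed in direction with nearly equal sizes. Pdgfa had risen by 1.43 from day 0 to day 1, and on day 3 it was not called against day 0 (-0.11; adjusted p = 0.19). Pdgfc was above day 0 on day 3, by 1.49. Mstn, the brake on muscle mass, fell by 1.58 ± 0.15, Vegfa and Hbegf fell by 0.68 and 1.28, and Igf1, Igf2, Hgf and Tgfb1 rose by 1.05 ± 0.09, 0.78 ± 0.12, 1.01 ± 0.11 and 0.61 ± 0.12.

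Myogenic genes moved both ways, with more rises than falls. Mymk, the membrane protein required for fusion of myoblasts, read 8.45 and 8.72 on day 1 and 10.67 and 10.57 on day 3. Each day 3 array was above both day 1 arrays, and the rise was 2.04 ± 0.10 (4.11-fold; adjusted p = 6.6e-08). Myog, the factor that starts differentiation, read 8.48 and 8.25 on day 1 and 9.51 and 9.42 on day 3 and rose by 1.10 ± 0.09. Myod1, the factor of committed myoblasts, fell by 0.42 ± 0.12, and Myf6, a factor of mature fibres, by 1.01 ± 0.12. Pax7, the marker of satellite cells, rose by 0.24 ± 0.08 (adjusted p = 0.028), and Myf5 differed by 0.04 and was not called. Pax7 had fallen by 0.33 from day 0 to day 1, and on day 3 it was not called against day 0 (-0.09; adjusted p = 0.37). Of the 30 genes in the list, 13 rose and 6 fell (43.3% and 20%, against 19.5% and 24.7% of all genes). Developmental contractile genes rose in 8 of 13 and fell in 1. That list also holds Tnni1 and Tnnc1, troponins that adult slow fibres use, so it is not specific to new fibres. Myh3, the embryonic myosin, rose by 1.55 ± 0.16 and Tnnt2, the cardiac troponin T, by 1.37 ± 0.11. For Tnnc1 the sides differed: it read 9.07 and 8.53 on day 1 and 9.68 and 10.61 on day 3, a rise of 1.35 ± 0.28. Both Mymk and Myh3 rose again from day 3 to day 5, by 1.62 and 2.38.

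Genes of the mature fibre and of its fuel use mostly fell. These falls moved with the rises of the macrophage and matrix lists above, whose part in them was not tested. Of 20 adult fast-fibre sarcomere genes 13 fell and 0 rose, and of 21 excitation-contraction coupling genes 16 fell and 1 rose. Mylk2, the kinase of skeletal myosin light chain, fell by 1.22 ± 0.16, and Jph1, which holds the triad together, by 1.23 ± 0.14. Without the day 3 right array these counts of fallers were 7 and 8, and without the day 1 right array the coupling count was 10. Trim63, a ubiquitin ligase of atrophy, read 12.89 and 12.82 on day 1 and 11.05 and 11.06 on day 3, a fall of 1.80 ± 0.15 (3.48-fold lower; adjusted p = 3.1e-06). Trim63 had risen by 1.55 from day 0 to day 1, and on day 3 it was not called against day 0 (-0.25; adjusted p = 0.20). Of 20 atrophy and autophagy genes, 15 fell and 0 rose, and Fbxo32, the partner ligase, fell by 0.93 ± 0.13. On day 3, 14 of the 20 were below day 0 and 2 above, against 26.6% and 24.1% of all genes. In oxidative phosphorylation 24 of 39 genes fell (13 without the day 3 right array and 14 without the day 1 left array), in the citric acid cycle 18 of 21, in fatty acid oxidation 14 of 21, and in glycolysis and glycogen use 14 of 26. Gpd1, which links glycolysis to lipid synthesis, read 12.03 and 12.09 on day 1 and 10.41 and 10.24 on day 3 and fell by 1.74 ± 0.15. Stretch and sarcomere stress genes fell in 8 of 18: Xirp1, a protein of damaged sarcomeres, fell by 0.94 ± 0.19 and Ankrd1, the stretch-induced ankyrin repeat protein, by 0.55 ± 0.20. The 8 became 5 without either day 1 array and 3 without the day 3 right array.

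Ribosome biogenesis and ribosomal protein genes went opposite ways. Of 47 biogenesis genes 26 fell and 1 rose, and Tsr1 and Gnl3, nucleolar assembly factors, fell by 0.84 ± 0.08 and 0.71 ± 0.12. Of 26 ribosomal protein genes 19 rose and 0 fell, with Rpl8 up the most, by 0.59 ± 0.09 and Rps18 by 0.58 ± 0.09. The 19 became 10 without the day 1 right array and 11 without the day 3 left array. Ribosomal protein genes have many processed copies in the genome, so their signals may hold more than 1 source. Of the 28 genes of the unfolded protein response and ER chaperones, 9 fell (32.1%, against 24.7% of all genes) and 2 rose, with a median of -0.12 close to the -0.10 of all genes. Ddit3 and Ppp1r15a, which act late in that response, fell by 1.20 ± 0.11 each. Cholesterol synthesis genes rose in 10 of 19, and 1 fell, Hsd17b7, by 0.75 ± 0.09, the largest called difference of that list.

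**Figure D4:**
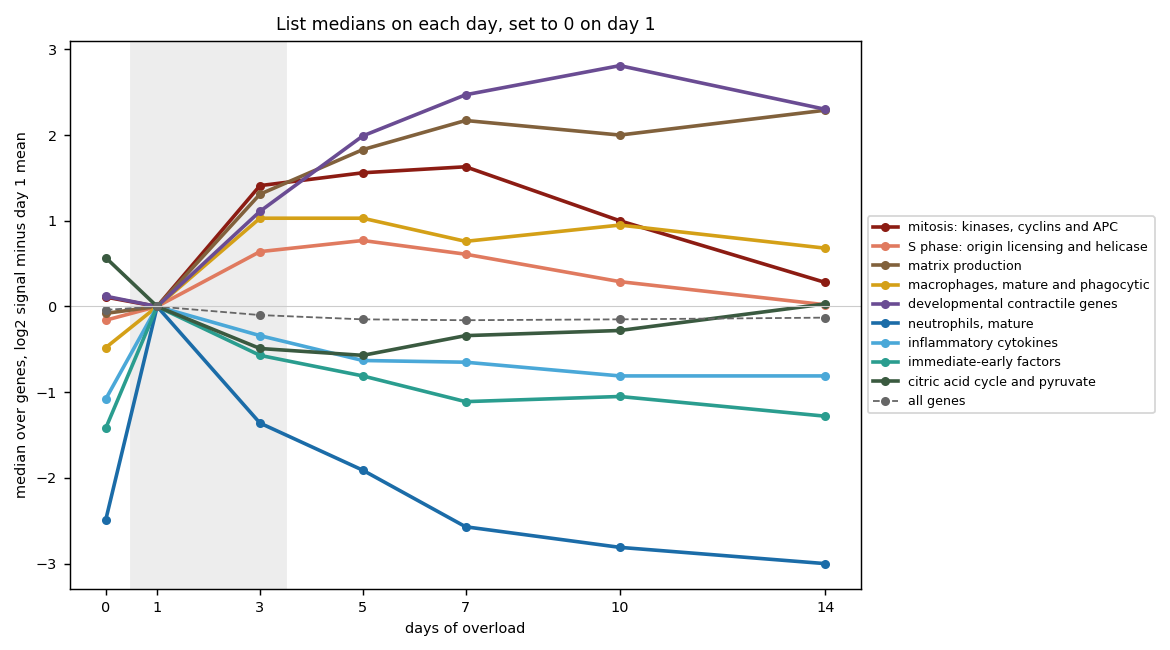
The median over the members of 9 lists, and over all genes dashed, of each gene's day mean minus its own day 1 mean, in log2 signal against days of overload. The mitotic kinases stand at 1.41 on day 3 and 0.28 on day 14, the mature neutrophil genes at -1.36 and -3.0, and the matrix genes at 1.31 and 2.29.

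Counts of 0 members in the opposite direction, given for several lists above, are from limma at an adjusted p under 0.05. At an unadjusted p under 0.05 they were also 0, except for 1 gene lower in the mitotic kinase list, 1 lower in the matrix list and 1 higher in the T and NK cell list.

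The left and right pools each gave their own day 3 minus day 1 difference. All 230 named genes had the same sign on both sides, as had 8818 of the 8819 called genes, but these genes were chosen by calls on the same arrays, so the shared sign follows largely from the choice and is no separate check. The sides did not give equal sizes for every gene, as Il6, Mmp13 and Tnnc1 show. Left and right levels correlated across genes with r = 0.9951 on day 1 and 0.9968 on day 3 over genes of very different brightness.

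**Figure D5:**
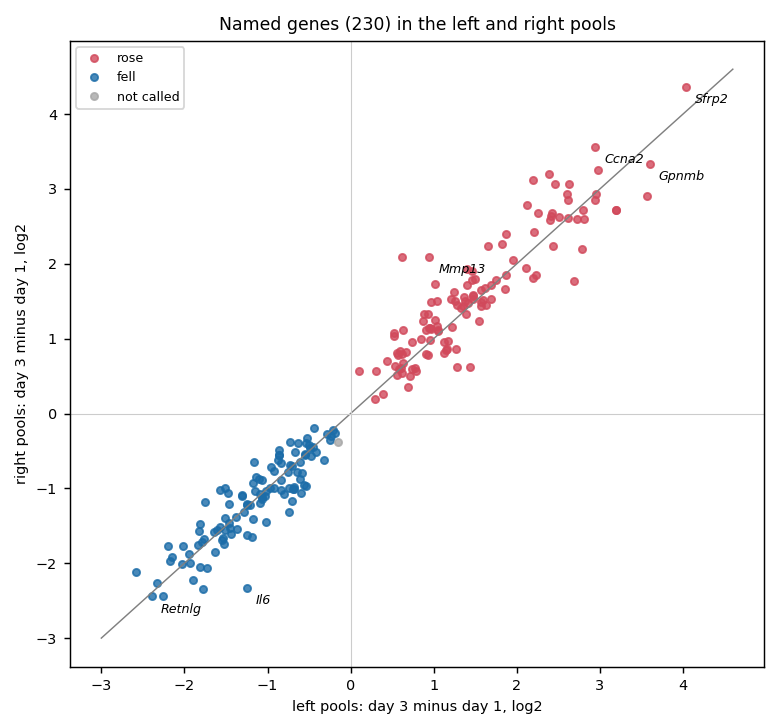
Each of the 230 named genes by its log2 difference of day 3 minus day 1 in the left pools and in the right pools, red where it rose, blue where it fell, with the line of equal size. The genes were chosen by calls on these arrays, so their shared sign is no separate check; the plot shows the sizes, and Il6 sits off the line at -1.25 on the left and -2.33 on the right.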

How the data were processed

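Gene expression in 14 muscle RNA pools was read on Mouse Gene 1.0 ST arrays, and the deposited file gives 1 log2 signal for each probe set and array. How the submitters normalized it is not given in the sources used. Partek is named in the submitters' processing notes. For the RNA input, the design text states 100 ng while the protocol for labelling states 250 ng. No scanner file was used here and detection was not judged; precision is set by how few arrays there are. The values lay between 2.35 and 14.8.

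Of 35557 probe sets, 21789 carried 1 gene symbol in the platform annotation (1621 carried several, 12147 none), and 21698 of these matched RefSeq (GRCm38.p6) by gene ID. Where several probe sets named a gene (999 genes), the brightest by its mean over all arrays was kept. The 19938 genes so obtained were tested without removing dim ones. A model with day as the group was fitted by limma (version 3.58.1, under R 4.3.3) to the 14 arrays together, with 7 residual and 4.95 prior degrees of freedom. Two-sided p-values received the Benjamini-Hochberg adjustment across the 19938 genes, and 0.05 was the threshold. The script was tested on simulated data.

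Right minus left differences of days 1 and 3 correlated across genes with r = 0.0737 (from -0.185 to 0.354 over pairs of days), but side is a label of the pools, so a fit with side as a block was an alternative. Named genes are the 20 largest rises and 15 largest falls among called genes with both day 3 arrays beyond both day 1 arrays (predicted genes, pseudogenes and small RNA genes left out), the 4 members of each of the 52 lists with the largest called difference, and genes fixed by name. Named after their values were seen were Zwint, Gmnn, Cdt1, Ppat, Pttg1, Wee1, Cdkn1b, Ccnd2, Ccnd3, Ccne1, Ccne2, Cdk2, Cdk4, Cdk6, Btg1, Gadd45b, Gadd45g, Ccng1, Ccng2, Mdm2, Cdkn2b, E2f4, E2f5, E2f6, Tfdp2, Ptx3, Alox5ap, Il10, Lpl, Myf6, Vegfa and Hbegf. Members and lists were chosen with earlier results of these data known, so their counts describe and support nothing alone. As alternatives, arrays were quantile normalized or set to equal medians, the dimmest 25% of genes were dropped, probe sets were averaged or all kept, a robust fit with an intensity trend and a fit with array weights were run, side was made a block, the fit was limited to the 4 arrays, the threshold was 0.01, and arrays were left out singly.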

Additional observations from a re-analysis of the deposited data

How the results depend on the processing

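The direction of every called gene shared with an alternative was the same as in the fit reported, and 208 of the 230 named genes kept direction and side of the threshold under all alternatives, with 0 reversed. The named genes were chosen largely by calls on these same arrays, which the alternatives reuse, so their kept direction is no separate check. With 1 value per gene, the count called ran from 5394 at a threshold of 0.01 to 10249 with equal array medians. With side as a replicate block, 9167 genes were called, 43.4% of them higher. At a threshold of 0.01, 2494 genes fell, and the count of fallers was 9 of the cytokines, 7 of the fast-fibre sarcomere genes, 9 of the excitation-contraction coupling genes, 15 of the oxidative phosphorylation genes, 4 of the stretch genes, 3 of the platelet and clotting genes, 1 of the T and NK cell genes and 0 of the granule precursor genes, while 12 ribosomal protein genes, 3 interferon-stimulated genes, 1 mast cell gene, 0 B cell genes and 0 keratinocyte genes rose. With equal array medians 4 interferon-stimulated genes, 1 mast cell gene and 0 B cell genes rose and 2 granule precursor genes fell. With quantile normalization 2 T and NK cell genes fell, with only the 4 arrays 1 of these and 4 granule precursor genes fell, and with the side block 4 mast cell genes rose. Apart from the threshold, whose stricter level gives fewer calls by construction, the cause was not tested.

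Leaving out 1 array leaves its day with 1 array, assumed to vary like the other days. Over these fits the genes that fell numbered 2874 to 4249, and the fallers 10 to 14 of the cytokines, 7 to 10 of the hypoxia genes, 3 to 6 of the stretch genes, 7 to 11 of the fast-fibre genes, 8 to 14 of the coupling genes, 13 to 22 of the oxidative phosphorylation genes, 3 to 5 of the platelet and clotting genes (3 without the day 3 left array), 1 to 3 of the T and NK cell genes and 0 to 2 of the granule precursor genes. Risers were 10 to 20 of the ribosomal protein genes, 2 to 6 of the interferon-stimulated genes, 1 to 2 of the mast cell genes, 0 to 1 of the keratinocyte genes and 0 of the B cell genes. The other lists' counts in their leading direction stayed within 1.5 times. The 2 arrays a day limit the precision.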

Other observations

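Histone genes of the H1f1 to H1f5, H2ac, H2bc, H3c and H4c families, most of which are expressed in S phase, were looked at after H2ac4 had come up among the largest rises, so they carry no test or count of calls. Of 26 measured, the differences of day 3 minus day 1 ran from -0.06 to 3.24 with a median of 0.84, 12 lay above 1 and 1 below 0. H2ac4, an H2A gene, read 4.39 and 4.44 on day 1 and 7.96 and 7.35 on day 3. H2bc3, an H2B gene, read 7.21 and 7.25 on day 1 and 9.91 and 9.42 on day 3, and H1f5, a linker histone gene, read 8.27 and 8.18 on day 1 and 10.34 and 10.24 on day 3. Both day 3 arrays were above both day 1 arrays in these 3 genes. Many of these genes are near-identical copies, so a signal may hold more than 1 of them.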
